A study of Mus musculus with 17 samples.

Results

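The genes described here encode feedback inhibitors of mitogen-activated protein kinase (MAPK) signalling. They are 6 MAPK phosphatases (Dusp1, Dusp2, Dusp4, Dusp5, Dusp6 and Dusp10) and 3 inhibitors that act near the receptor (Spry1, Spry2 and Spred1). They were chosen by name, with earlier results of these data known, and all probe sets annotated to 1 of them alone were taken. This gave 18 of the 45101 probe sets on the array, for 9 of the 18193 genes named. Spred1 has 8 probe sets, Dusp10 and Spry2 have 2 each, and the other genes have 1 each. All 18 lay above the lowest deposited intensity on at least 1 array.

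Growth factors and stress activate the MAPKs through chains of kinases. The RAS-ERK chain is used mainly by growth factor and cytokine receptors, and the JNK and p38 chains mainly by stress signals. Active MAPKs induce many of these inhibitors at the transcript level, so that the signal limits itself. Dual-specificity phosphatases (DUSPs) remove the activating phosphates from the MAPKs themselves, whereas Sprouty and SPRED proteins act upstream, at the step from receptor to RAS and RAF. In hematopoietic stem cells (HSCs), cytokines such as those acting through KIT signal through the RAS-ERK chain.

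The study measured RNA of HSCs sorted from mice on 17 Affymetrix arrays in 5 groups, and its title concerns C/EBPa, a transcription factor of the myeloid lineage, in adult HSC quiescence. Adult HSCs were sorted as lin-, sca1+, ckit+, CD150+, CD48- cells, and the fetal gate asked for low Mac-1 in addition. One group of 3 arrays came from fetal liver at E15.5. After pIpC, control and C/EBPa KO mice were sampled at day 7, with 3 arrays each, and at day 21, with 4 arrays each. pIpC, a double-stranded RNA made by synthesis, triggers interferon and serves to switch on an inducible Cre. Both the adult control and the KO groups received it, and the labels of the fetal group name no injection and no genotype. The labels give neither the Cre driver nor the age of the adults. Nor do they say whether each array is an animal or a pool, and p-values reflect the spread among arrays, which may be technical. The titles name the C/EBPa KO, while the genotype field of these arrays names a Pu.1 knock-in (PU.1ki/ki) and that of the controls wild type. Cebpa, the gene for C/EBPa, lay between 20.7 and 32.03 intensity units in KO and between 136 and 315 in control at day 7. At day 21 it lay between 25.0 and 39.8 in KO and between 115 and 532 in control, and in fetal liver between 30.2 and 81.0. Spi1, the gene for PU.1, overlapped between KO and control at both days. Groups are called by their titles. Of the sort markers, Kit lay between 442 and 905 and Procr, an HSC marker, between 264 and 1361 on all 17 arrays, and Slamf1, the gene for CD150, between 37.8 and 1049. Slamf1 read 582, 37.8 and 140 on fetal replicates 1, 2 and 3. In control it lay between 111 and 454 at day 7 and between 156 and 1049 at day 21. Cd48, which the gate excludes, lay between 16 and 18.8 in control at day 7, but between 99.5 and 210.0 in fetal liver, 60.9 and 283 in KO at day 7, 90.3 and 308 in KO at day 21, and 18.6 and 658 in control at day 21.

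Median intensity per array ranged from 39.4 to 53.1, and on each array 20.4% to 25.2% of the probe sets stood at 16, the lowest value. Control replicate 3 of day 21 lay farthest from the mean of its group. A gene was represented by its brightest probe set, and log2 intensity was fitted with limma over 16784 genes. A gene counts as called where the p adjusted by Benjamini and Hochberg's method was under 0.05. Differences are on the log2 scale, with standard errors (SE). Adjusted p-values are limma's over all genes tested, or over all probe sets tested where the probe sets of a gene are compared. Intensities of different probe sets are not on a common scale per molecule, so each gene is compared only with itself. Sums over a gene list serve to compare arrays and weigh the brightest genes of the list most.

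Fetal liver HSCs carried less transcript of 4 of the 9 feedback genes than adult control HSCs. The 4 called lower were Dusp5 (4.67-fold), Spry2 (4.21-fold), Dusp6 (3.96-fold) and Dusp4, and 0 were called higher. No fold is given for Dusp4, since 2 of its 3 fetal arrays stood at the lowest deposited value and the size of its difference depends on that value. Of all genes tested, 1.77% were called lower in this comparison and 1.88% higher. The log2 difference was negative for 9 of 9 members, with a median of −1.60, and the median over all genes tested was 0.02. On 4 members, Dusp2, Dusp4, Dusp5 and Dusp6, all 3 fetal arrays lay below all 7 adult control arrays, against 2.68% of all genes. Since the members were chosen with earlier results of these data known, these shares do not measure chance. In sorted cells measured in bulk, fewer cells of a kind and less RNA per cell cannot be told apart. Stage, tissue and pIpC cannot be told apart in this comparison either.

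Dusp5, a nuclear phosphatase that acts on ERK, had the smallest p of the 9 members. Its intensities were 413, 349.6 and 338 on the fetal arrays. They were 2855, 1906 and 2176 on the control arrays of day 7 and 1233, 1695, 566 and 2257 on those of day 21. The fetal arrays lay close together, and the lowest adult control array stood above all of them. The difference was −2.22 (SE 0.38, adjusted p = 0.00445), or 4.67-fold lower. It remained called without any 1 array, with adjusted p-values from 0.00049 to 0.0236.

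The Dusp5 promoter is shown because it was the one among the 8 member promoters in the table that held CArG boxes, the motif of serum response factor, which drives many immediate early genes. The sequence is RefSeq's (GRCm38.p6), chr19:53528895-53529144, plus strand, and covers the 250 bases before the gene's start. Capitals mark the 2 CArG boxes, whose first bases lie 82 and 72 bases upstream of the start, and the short CRE core (TGACG) read on the other strand at 55 bases.
Dusp5: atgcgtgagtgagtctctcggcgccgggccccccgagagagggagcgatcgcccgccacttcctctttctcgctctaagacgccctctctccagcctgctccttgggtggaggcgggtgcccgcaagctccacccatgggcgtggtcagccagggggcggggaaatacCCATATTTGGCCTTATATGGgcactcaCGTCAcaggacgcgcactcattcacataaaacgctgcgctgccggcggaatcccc
A CArG box on either strand occurred in 1.47% of 32851 promoters of the same length, and TGACG in 17.8%.

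Dusp6, the cytoplasmic phosphatase that acts on ERK, had intensities of 326, 144 and 228 on the fetal arrays. It had 1612, 965 and 1313 on the control arrays of day 7, and 678, 755, 402 and 633 on those of day 21. All fetal arrays were below all control arrays. On the log2 scale the difference was −1.98 (SE 0.38, adjusted p = 0.00944). It was not called against control at day 21 alone (−1.45, adjusted p = 0.0913) or without fetal replicate 2 (−1.68, adjusted p = 0.0618).

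Dusp4, a nuclear phosphatase induced by ERK, was measured above the lowest value on 1 of the 3 fetal arrays. That array read 157 and the other two read 16, so the fetal mean is an upper bound. The control arrays read 231, 326 and 212 at day 7 and 695, 329, 273 and 186 at day 21. The groups did not overlap, although the highest fetal and the lowest control array were close. The log2 difference was −3.07 (SE 0.73, adjusted p = 0.0347). With 32 added to each intensity it was −2.09 and not called (adjusted p = 0.0610). The call was lost without fetal replicate 2 or 3, without control replicate 1, 2 or 3 of day 7, and without control replicate 1 or 2 of day 21, with adjusted p-values from 0.0511 to 0.161 in these 7 fits.

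Spry2, which dampens ERK activation by growth factor receptors, read 603, 76.6 and 123 on the fetal arrays. It read 1296, 717 and 602 on the control arrays of day 7 and 666, 788, 610.3 and 678 on those of day 21. Fetal replicate 1 stood level with the lowest control array, and the other two were far below. Its log2 difference was −2.07 (SE 0.50, adjusted p = 0.0363). The call was lost without fetal replicate 2 or 3, without control replicate 1 or 2 of day 7, and without control replicate 1, 2 or 4 of day 21, with adjusted p-values from 0.0523 to 0.172 in these 7 fits.

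The other 5 members did not pass the test. Dusp2, a nuclear phosphatase known from lymphocytes, read 649, 115 and 475 on the fetal arrays. Its control arrays read 1410.3, 771 and 963 at day 7 and 757, 915, 1574 and 856 at day 21. The groups did not overlap, with a log2 difference of −1.60 (SE 0.43, adjusted p = 0.0591). It was called without fetal replicate 1 (−2.10, adjusted p = 0.0187) and moved to −0.85 without fetal replicate 2 (adjusted p = 0.200). Dusp10, which acts on JNK and p38, read 72.7, 80.7 and 90.9 on the fetal arrays, and its difference was −1.22 (SE 0.52, adjusted p = 0.244). Without control replicate 2 of day 21 it was −0.85 and called (adjusted p = 0.0452). Spry1, a relative of Spry2, read 286, 69.0 and 256, with a difference of −1.08 (SE 0.51, adjusted p = 0.305) that ran from −1.45 without fetal replicate 1 to −0.43 without fetal replicate 2. Spred1, which recruits neurofibromin to switch RAS off, read 371, 218 and 347, and 1480.1, 356 and 568 in control at day 7 and 413, 326, 1166 and 586 at day 21, with a difference of −0.999 (SE 0.45, adjusted p = 0.277). The fetal arrays of these 3 genes overlapped the adult control arrays.

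Dusp1, a nuclear phosphatase induced by stress and growth factors, read 2969, 1522 and 2226 on the fetal arrays. The control arrays read 4421, 4912 and 5927 at day 7 and 2136, 2255, 2646 and 4123 at day 21. Its fetal arrays lay below all control arrays of day 7 and overlapped those of day 21. The log2 difference from both control groups was −0.77 (SE 0.23, adjusted p = 0.0917). Against control at day 7 alone it was −1.23 (adjusted p = 0.0354), and against control at day 21 alone −0.32 (adjusted p = 0.623). Without fetal replicate 1 it was −1.002 (adjusted p = 0.0462), and without fetal replicate 2 it was −0.52 (adjusted p = 0.346).

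The Dusp1 promoter is shown because it was the one among the 8 member promoters with a complete cAMP response element (CRE, TGACGTCA), the motif of the factor CREB. The sequence is RefSeq's (GRCm38.p6), chr17:26508473-26508722, minus strand, and covers the 250 bases before the start. Capitals mark the CRE at 143 bases upstream of the start, the short CRE core TGACG at 191 bases and an E-box (CACGTG) at 126 bases. The CRE itself contains this core on both strands.
Dusp1: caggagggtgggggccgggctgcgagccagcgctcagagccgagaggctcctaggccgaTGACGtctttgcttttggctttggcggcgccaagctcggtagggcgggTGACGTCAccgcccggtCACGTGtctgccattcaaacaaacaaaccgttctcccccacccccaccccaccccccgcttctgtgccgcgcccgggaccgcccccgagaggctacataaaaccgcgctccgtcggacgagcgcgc
Of 32851 promoters of this length, 1.55% held the CRE and 6.02% the E-box, searched on both strands. The motif TTNNGNAA, bound by C/EBP factors, was found in the windows of Spry2 and Spred1 and in 36.8% of all promoters. The AP-1 motif TGANTCA and the ETS motif CCGGAA were in 0 of the 8 windows, and in 6.75% and 12% of all promoters. Such matches are letters in a window and were not set against binding data.

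**Figure D1:**
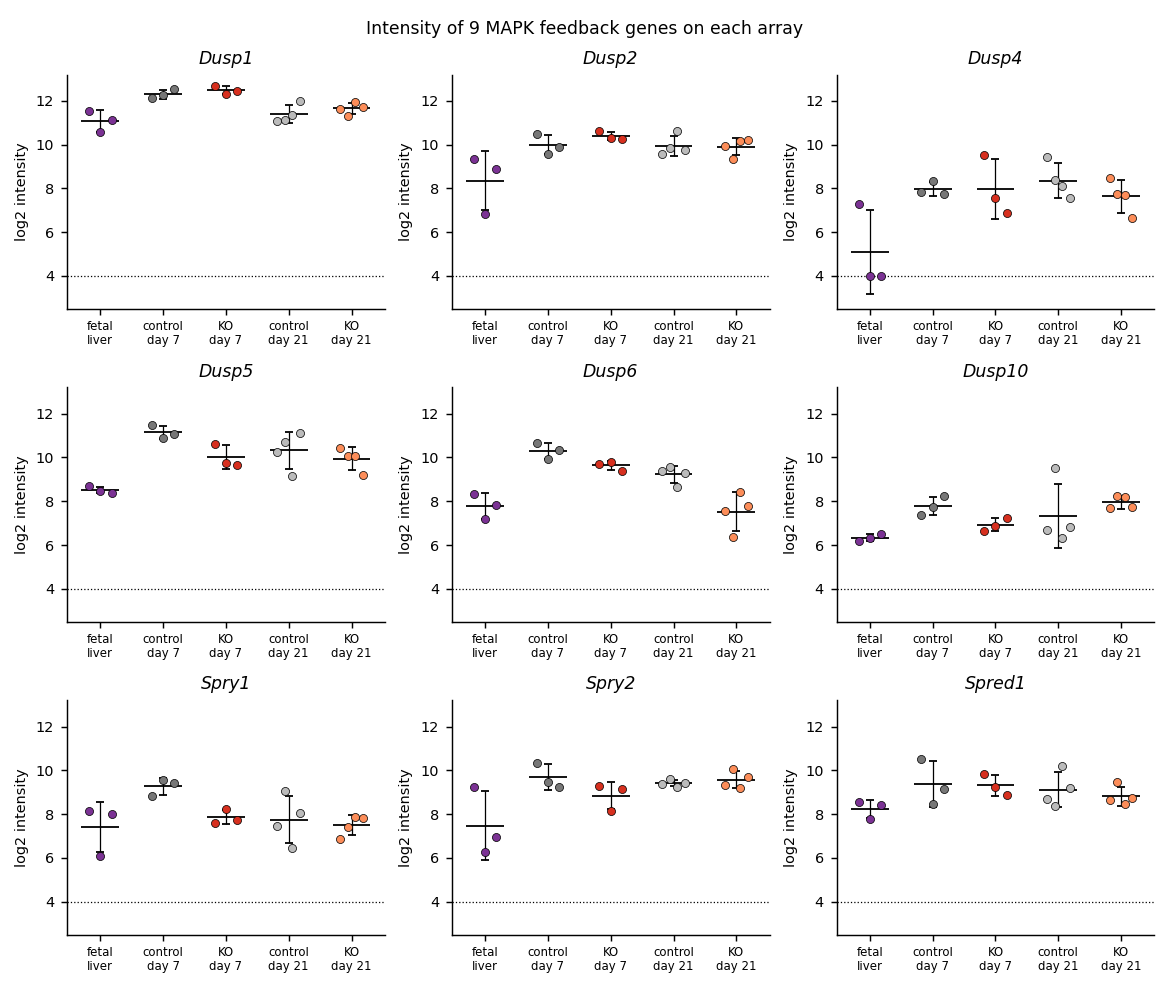
Log2 intensity of each of the 9 genes on every array, by group. Points are arrays, horizontal lines are group means, bars are 1 SD on the log2 scale and the dotted line is the lowest deposited value, log2 4. The fetal arrays of Dusp5 and Dusp6 lie below all control arrays, and Dusp6 in KO at day 21 lies below control at day 21.

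Fetal replicate 1 was the highest of the 3 for 8 of 9 members, the exception being Dusp10. Fetal replicate 2 alone was the lowest for 6 of 9. Fetal replicate 1 by itself lay below all 7 adult control arrays for Dusp2, Dusp4, Dusp5, Dusp6 and Dusp10, and not for the other members. The share of all genes for 1 array alone was not computed, and 1 array meets this rule more easily than 3. The log2 ratio of 3' to 5' signals of the Gapdh and beta-actin control probe sets, a sign of RNA quality, was 0.0177 on fetal replicate 1, 0.515 on replicate 2 and 0.298 on replicate 3. Replicate 2 had the highest ratio of all 17 arrays. With this ratio as a covariate Dusp4 and Spry2 were not called (adjusted p = 0.0730 and 0.0760). Summed markers of other liver cells also differed between these arrays, not all in the same order. The summed intensity of 8 hepatocyte markers was 811 on fetal replicate 1, 11167 on replicate 2 and 7487 on replicate 3, against 392 to 1146 on the adult control arrays. The sum of 10 endothelial markers was 3022, 10069 and 13839 on the same 3 arrays, against 918 to 1518 in adult control.

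Several of these markers were called higher in fetal liver. They were 3 of 8 hepatocyte markers, among them Alb, the gene for albumin (3.38, adjusted p = 0.0440), and 5 of 10 endothelial markers, among them Lyve1 of liver sinusoids (5.64, adjusted p = 1.3e-05). Of 10 macrophage markers 2 were called higher, C1qb and Mrc1, and their list summed to between 2619 and 4402, highest on replicate 1, against 252 to 563 in adult control. Of the macrophage list, Cd163 was at the lowest value on all fetal arrays, and Adgre1 on all adult control arrays. Of 8 erythroid markers 4 were called higher, and of 10 neutrophil markers 2. Neutrophil markers summed to between 5016 and 38168 in fetal liver, highest on replicate 1, and to between 1313 and 5627 in adult control. Of 8 markers of the gate and of HSCs 0 were called in this comparison. Whether these marker transcripts came from other cells or from the sorted HSCs was not tested, nor was their part in the lower feedback transcripts. On fetal replicate 1 the hepatocyte sum lay within the adult control range. The endothelial, macrophage and neutrophil sums of that replicate lay above their adult control ranges. So did its erythroid sum, at 5650 against 460 to 4075. Without that replicate 6 of 9 members were called lower, without replicate 2 only Dusp5 was, and without replicate 3 there were 2.

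**Figure D2:**
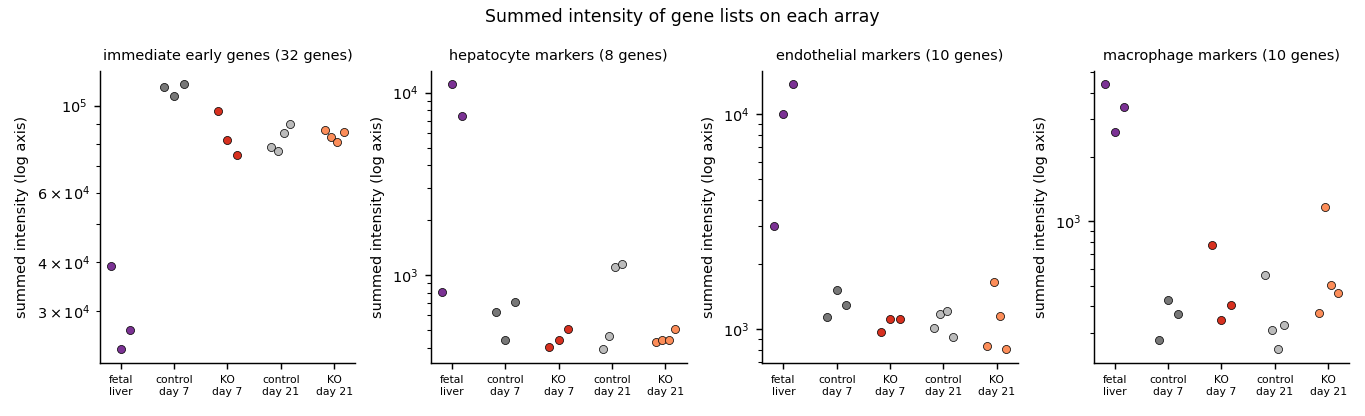
Summed intensity of 4 gene lists on each array, on log axes that do not start at 0. Points are arrays in their 5 groups. The immediate early genes sum to less on the 3 fetal arrays than on any adult array, and the hepatocyte and endothelial sums are lowest among fetal arrays on replicate 1.

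KO HSCs were compared with control HSCs of the same day, which addresses the role of C/EBPa in adult HSCs. At day 7, 0 of 9 members were called, and 0 of all 16784 genes (0%). An unadjusted p under 0.05 was reached by 6.72% of genes and by 2 members, Dusp5 and Spry1. In simulated data the same fit recovered 50.7% of 4-fold and 11.9% of 2-fold changes at this day. Those data held 67 genes changed 4-fold, 67 changed 2-fold and 66 changed 16-fold. The adjustment is less strict where many genes change, and in the measured data 0 genes were called. Recovery with few changed genes was not simulated, so these shares may overstate the power for the members. The difference was negative for 6 of 9 members, with a median of −0.68, against a median of 0 over all genes.

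Dusp5 read 1589, 849 and 818 on the KO arrays of day 7, all below the lowest control array at 1906. On the log2 scale the difference was −1.14 (SE 0.44, adjusted p = 0.668). Spry1 read 196, 296 and 213 in KO and 457, 747 and 681 in control. Its KO arrays also lay below all control arrays, with a difference of −1.41 (SE 0.60, adjusted p = 0.691). Dusp6 read 838, 899 and 665 in KO, just under the lowest control array at 965, with a difference of −0.68 (SE 0.44, adjusted p = 0.863). Dusp10 read 99.7, 119 and 149.9 in KO and 168, 213 and 299 in control, with a difference of −0.87 (SE 0.61, adjusted p = 0.877). Its second probe set, 1417164_at, had the other sign, at 0.42 (SE 0.84). KO arrays thus lay below all control arrays for 4 of 9 members, as they did for 6.39% of all genes.

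Other members overlapped between KO and control at day 7 on their brightest probe sets. Spry2 read 624, 279.9 and 562 in KO, with a difference of −0.84 (SE 0.59, adjusted p = 0.877). Dusp1 read 6645, 5083 and 5621, with a difference of 0.19 (SE 0.28, adjusted p = 0.977). Dusp2 read 1568, 1263 and 1217, with a difference of 0.40 (SE 0.51, adjusted p = 0.960). Dusp4 was spread widely, at 734, 189 and 116, and its difference was close to 0. Spred1 read 921, 596 and 475 in KO and 1480.1, 356 and 568 in control, with a difference of −0.07 (SE 0.53, adjusted p = 1). Its dimmer probe sets disagreed in sign, and those at the 2 extremes did not overlap between KO and control. The difference was −1.24 on 1423160_at (SE 0.69, adjusted p = 0.824) and 1.18 on 1452911_at (SE 0.80, adjusted p = 0.863). The 95% interval for Dusp1 ran from −0.41 to 0.78, and that for Dusp4 from −1.85 to 1.86, so that even a large change of Dusp4 lay within it.

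At day 21, 0 of 9 members were called, against 3 genes of all (0.0179%), and 1 member and 10.1% of genes had an unadjusted p under 0.05. Dusp6 came nearest. It read 186, 81.6, 348 and 222 on the KO arrays and 678, 755, 402 and 633 on the control arrays. All KO arrays lay below all control arrays, which held for 1 of 9 members and for 2.35% of all genes. The log2 difference was −1.70 (SE 0.38, 95% interval −2.53 to −0.87, unadjusted p = 0.000639, adjusted p = 0.146), or 3.25-fold lower. Leaving out any 1 array moved it between −2.002 and −1.31, with adjusted p-values from 0.130 to 0.273.

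Values of the other members at day 21 overlapped between KO and control. Dusp10 read 205, 302, 288 and 210.4 in KO and 102, 736, 80.8 and 112 in control. Control replicate 2 stood far above the other 3, and with it the difference was 0.62 (SE 0.53, adjusted p = 0.725). Without it the difference was 1.35 and called (adjusted p = 0.0406), in a fit that called 43 genes of all, against 3 with all arrays. On the second Dusp10 probe set, 1417164_at, the difference with all arrays was −0.44 (SE 0.73), of the other sign. Dusp5 read 1361, 1079, 1066 and 581 in KO, with a difference of −0.39 (SE 0.38, adjusted p = 0.772). Dusp4 read 357, 214, 209.9 and 99.5, with a difference of −0.72 (SE 0.75, adjusted p = 0.787). Differences of Dusp1, Dusp2, Spry1, Spry2 and Spred1 lay between −0.28 and 0.26, with adjusted p-values from 0.752 to 1. Their KO intensities ranged from 2553 to 3978 for Dusp1, from 649.8 to 1172 for Dusp2 and from 118 to 232 for Spry1. Those of Spry2 ranged from 591 to 1079.5 and those of Spred1 from 357 to 699.

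Averaged over both days, the KO difference was −1.19 for Dusp6 (SE 0.29, 95% interval −1.82 to −0.55, adjusted p = 0.167). It was −0.76 for Dusp5 (SE 0.29, adjusted p = 0.333) and −0.83 for Spry1 (SE 0.40, adjusted p = 0.442). In this comparison 0 of 9 members and 12 of all genes (0.0715%) were called. Dusp6, of the 9 members, thus had the smallest p both at day 21 and over both days, without passing the test. A test of whether the KO effect differed between the days called 0 members and 0 of all genes (0%), and an unadjusted p under 0.05 was reached by 0 of 9 members and by 4.52% of genes. It was 1.48 for Dusp10 (SE 0.80, unadjusted p = 0.0874), −1.02 for Dusp6 (SE 0.59, unadjusted p = 0.105) and 1.16 for Spry1 (SE 0.80, unadjusted p = 0.168). No member is therefore shown to respond differently at the 2 days.

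Marker lists of other lineages were set beside the KO comparisons. Megakaryocyte markers had positive differences for 9 of 9 at day 7 and 8 of 9 at day 21. Their 9 measured genes summed to between 2433 and 5009 in KO and between 1132 and 1314 in control at day 7. At day 21 the sums were 4929 to 9817 in KO and 1926 to 8541 in control. Ppbp, a platelet chemokine, was the 1 called, over both days (2.00, adjusted p = 0.0448). Erythroid markers summed to between 1701 and 6368 in KO and between 460 and 1582 in control at day 7, with ranges that overlapped at day 21. Neutrophil markers had negative differences for 10 of 10 at day 21 (median −0.92), where they summed to between 1012 and 1630 in KO and between 1313 and 5627 in control. At day 7 they were negative for 8 of 10, with sums of 1245 to 3013 in KO and 2326 to 4523 in control. Lymphoid markers had positive differences for 7 of 8 at each day, with sums of 335 to 565 in KO and 256 to 345 in control at day 21. None of the neutrophil or lymphoid markers was called by limma at either day or over both. Mpo, the granule enzyme myeloperoxidase, was at −2.43 over both days (SE 0.77, adjusted p = 0.256). Fgd5, an HSC marker, was at −2.30 at day 21 (SE 0.52, adjusted p = 0.144). Whether these cells or transcripts bear on Dusp6, Dusp5 or Spry1 was not tested.

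**Figure D3:**
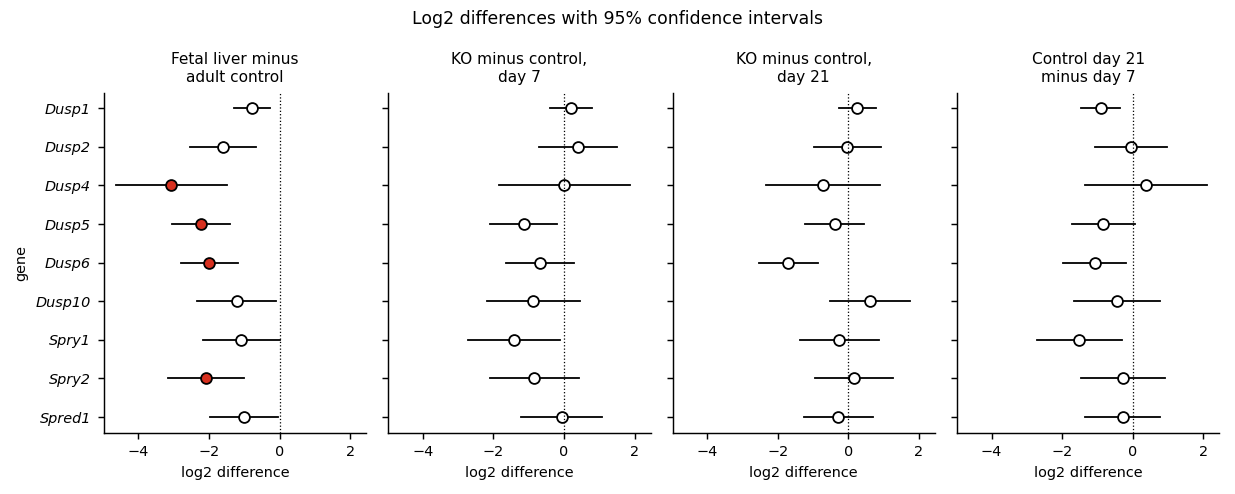
Log2 differences of the 9 genes in 4 comparisons, with 95% confidence intervals from limma. Red points are called at an adjusted p under 0.05 and white points are not. The 4 called points all lie in the fetal comparison, and Dusp6 in KO at day 21 is at −1.70.

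Control HSCs of the 2 days were set side by side as well. Day 21 follows day 7 after the same injection. The groups are separate arrays, so time since pIpC cannot be told apart from anything else that differed between the 2 samplings. The log2 ratio of 3' to 5' signals lay between 0.199 and 0.344 at day 7 and between −0.400 and 0.200 at day 21. None of the 9 members was called in limma, against 5 genes of all (0.0298%), and 3 members and 8.06% of genes had an unadjusted p under 0.05. The log2 difference, day 21 minus day 7, was negative for 8 of 9 members. It was −0.91 for Dusp1 (SE 0.26, adjusted p = 0.390), −1.08 for Dusp6 (SE 0.42, adjusted p = 0.534) and −1.51 for Spry1 (SE 0.56, adjusted p = 0.525). For Dusp1 and Dusp6 all arrays of day 21 lay below all of day 7, as for 3.38% of all genes. Dusp5 was at −0.83 (SE 0.42, adjusted p = 0.651), and Dusp4, at 0.38 (SE 0.81, adjusted p = 0.959), was the member with a positive value. Spry1 read 177, 527, 88.3 and 261 at day 21, against 457, 747 and 681 at day 7, and the highest array of day 21 lay within the range of day 7. This comparison shares the control arrays with the KO and fetal comparisons.

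Set in order, the group means showed which levels stood apart. Fetal liver was lowest for 8 of 9 members, and KO at day 21 was lowest for Dusp6. For Dusp6 the mean log2 intensity was 10.3 in control at day 7, 9.63 in KO at day 7, 9.23 in control at day 21, 7.79 in fetal liver and 7.53 in KO at day 21. Control at day 7 did not overlap KO at day 7, control at day 21 did not overlap fetal liver, and the other neighbours overlapped. For Dusp5 the order was control at day 7, control at day 21, KO at day 7, KO at day 21 and fetal liver, at 11.2, 10.3, 10.0, 9.93 and 8.51. The 4 adult groups overlapped from neighbour to neighbour, and fetal liver stood below KO at day 21 without overlap. For Spry1 control at day 7 was highest, at 9.26, and did not overlap KO at day 7, the next below. The other 4 groups, between 7.42 and 7.85, overlapped from neighbour to neighbour, and 1 control array of day 21 reached the range of control at day 7. Dusp1 split by day, with KO and control of day 7 at 12.5 and 12.3 and the other groups at 11.7 or below.

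Genes measured by several probe sets gave unequal answers. Over 40023 probe sets, 3.07% were called in the fetal comparison, and 5 of the 18 member probe sets were, all lower. The fifth, beside the brightest probe sets of Dusp4, Dusp5, Dusp6 and Spry2, was Spred1 1423160_at. It read 16, 133 and 59.3 on the fetal arrays and between 89.0 and 581 in adult control, with a difference of −2.63 (SE 0.59, adjusted p = 0.0282). Its lowest control array, replicate 3 of day 21, overlapped the fetal range. Of the 8 Spred1 probe sets 6 had negative differences. Besides 1423160_at, 1423162_s_at was at −1.24 (adjusted p = 0.175), 1460116_s_at at −0.82, 1423161_s_at at −0.78, 1452911_at at 0.13 and 1445228_at at 0.66, and 1443652_x_at stayed between 16 and 22.1 on all arrays. The dimmer probe sets of Spry2 (1421656_at, −1.28, adjusted p = 0.486) and Dusp10 (1417164_at, −0.69, adjusted p = 0.715) had the same sign as the brighter ones. The dimmer Spry2 probe set was erratic, reading 2569.8, 218 and 315 in control at day 7. All 9 genes lie at separate loci, Spred1 and Dusp2 both on chromosome 2, and the labels do not say which transcript ends the probe sets target.

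**Figure D4:**
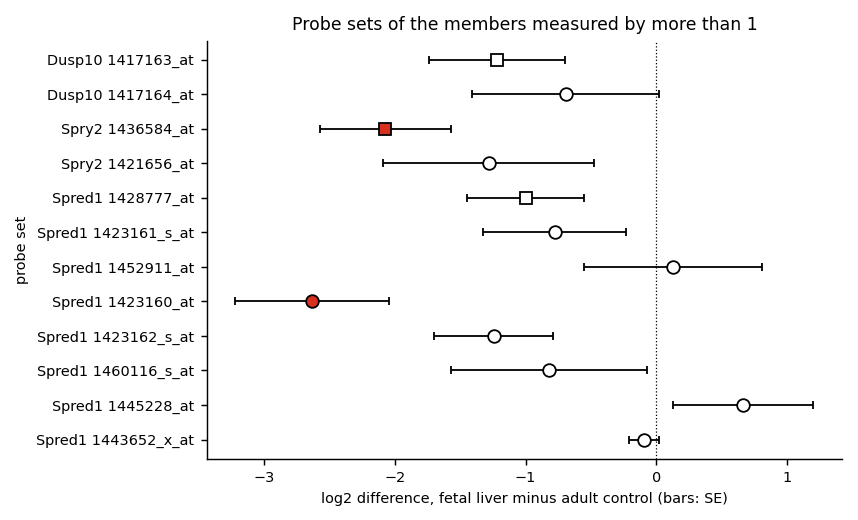
Log2 difference of fetal liver minus adult control for each probe set of the 3 genes with more than 1. Squares are the brightest probe set of a gene, bars are 1 SE and red marks a call over all probe sets. Spred1 ranges from −2.63 to 0.66 between its probe sets.

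The feedback genes were set beside the rest of the pathway. Related genes outside the 9, namely other DUSP, Sprouty and SPRED genes, had 0 of 12 called in the fetal comparison and a median of 0.11. These 12 genes were dimmer, with a mean log2 intensity between 5.94 and 6.59 on the adult control arrays. That of the member phosphatases lay between 9.04 and 9.99 and that of Spry1, Spry2 and Spred1 between 8.51 and 9.90. The lowest value is log2 4, so a fall had less room to show in the 12. Nearest to a call was Dusp7, a cytoplasmic ERK phosphatase like Dusp6, at 1.39 (SE 0.46, adjusted p = 0.123). Of 22 measured genes of the RAS-ERK cascade, Nras was called higher in fetal liver (0.94, adjusted p = 0.0314) and 0 lower, with a median of −0.03. Of 17 receptors and receptor subunits, Csf3r, the receptor of granulocyte colony-stimulating factor, was called lower (−1.04, adjusted p = 0.0363). The JNK and p38 list had 2 of 19 called lower, the stress-induced MAPK regulator Gadd45b (−4.00, adjusted p = 0.000229) and the kinase Map3k5 (−3.82, adjusted p = 0.00981).

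Immediate early genes were called lower in fetal liver in larger number. Of 32 such genes 25 were called lower and 0 higher, against 1.77% and 1.88% of all genes. The list was chosen with earlier results of these data known, and MAPK activity was not measured. Of the 32 differences 31 were negative, with a median of −1.87. Among them were Maff (−3.17, adjusted p = 3.08e-06), Egr1 (−2.78, adjusted p = 3.78e-05), Fosb (−3.32, adjusted p = 6.52e-05) and Klf4 (−2.92, adjusted p = 7.85e-05), all transcription factors. The summed intensity of the list lay between 23919 and 39049 on the fetal arrays, highest on replicate 1, and between 76546 and 113641 on the adult control arrays. Of 13 measured ERK output genes 4 were called lower, Egr1, Ier3, Fosl1 and Plaur, of which Egr1 and Ier3 are also in the immediate early list, as is Gadd45b.

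In the KO comparisons 0 genes of these pathway lists were called at either day. Immediate early genes had negative differences for 25 of 32 at day 7, with a median of −0.47, and positive ones for 19 of 32 at day 21, with a median of 0.13. Maff was at −1.34 at day 7 (SE 0.26, adjusted p = 0.268), and Nr4a3 at −1.22 (SE 0.30, adjusted p = 0.390). At day 21 Egr2 was at 2.87 (SE 0.69, adjusted p = 0.173) and Klf4 at −1.01 (SE 0.31, adjusted p = 0.291). Rasgrp1, which loads RAS with GTP, was at 1.32 at day 7 (SE 0.25, adjusted p = 0.268), and its KO effect at day 21 minus that at day 7 was −1.48 (adjusted p = 0.534). Mapk8ip3, a scaffold of the JNK chain, was at −1.14 at day 7 (SE 0.49, adjusted p = 0.690) and 2.34 at day 21 (SE 0.42, adjusted p = 0.0610), while control at day 21 against day 7 was at −2.62 (SE 0.45, adjusted p = 0.0938). Among relatives of the members, Dusp22 was at 0.88 at day 7 (SE 0.27, adjusted p = 0.508) and 0.75 at day 21 (SE 0.23, adjusted p = 0.298).

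The genes whose levels over the 17 arrays most resembled each member were found by Pearson's r among 10873 genes above the median probe set. The arrays share the group structure, so r after subtraction of the group means is given second. Dusp1 was most like Fos (0.923, then 0.824), Klf6 and Klf2, all of the immediate early list. Dusp2 was most like Dnaaf2 (0.927, then 0.890), with Nfkbia and Sik1 next. Dusp4 followed Yrdc (0.913, then 0.909) and, in the third place, the nuclear receptor Nr4a1 (0.890, then 0.806), which was also the second for Spry2 (0.912, then 0.879). Spry2 was closest to Rap1b (0.925, then 0.856).

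Dusp5 was closest to the transporter gene Abcb1b (0.922, then 0.751), and Dusp6 to Efhd2 (0.873, then 0.790). For Dusp6 the third gene, Erg, was alike only through the group means (0.789, then −0.0934). Dusp10 was closest to Cacnb1 (0.832, then 0.806), Spry1 to Cyp2j9 (0.849, then 0.785) and Spred1 to Rsad1 (0.841, then 0.796). Against the mean of the 32 immediate early genes, Dusp5 had an r of 0.828 that dropped to 0.312 within groups, and Dusp1 one of 0.636 that was 0.670 within groups. For Dusp10 the values were 0.485 and −0.364, and for Spry1 0.392 and 0.0502. The r was largely kept within groups for Dusp2 (0.784, then 0.707) and Spred1 (0.597, then 0.619). It was lower within groups for Dusp4 (0.776, then 0.538), Spry2 (0.796, then 0.501) and Dusp6 (0.515, then 0.336). These are descriptions over 17 arrays of 5 groups.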

How the data were processed

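Transcripts of sorted mouse HSCs were measured on 17 arrays. The authors deposited 1 linear intensity per probe set, for 45101 probe sets; the submitters' processing notes name RMA without a role or version, and the scaling between arrays and the lowest intensity of 16 are not explained in the sources used here. The deposited intensity was converted to log2 for this work, with no pseudocount. Array number, not read depth, limits the precision.

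Probe sets were named by the platform annotation given with the values: 34958 had 1 gene, 932 had several, and 64 control probe sets were left out. Identifiers of 34754 matched a RefSeq table of GRCm38.p6. The probe set with the highest mean stood for a gene. Of 18193 genes, 1409 lay at the lowest value on all arrays and were not tested. Groups came from titles. limma 3.58.1 (lmFit, eBayes) in R 4.3.3 fitted 5 group means to all arrays, with 12 residual degrees of freedom and a Benjamini-Hochberg threshold of 0.05. All arrays differed in their values, with correlations of at most 0.952. The fit was tested on simulated data with 200 changed genes; in the fetal comparison it recovered 44.8% of 4-fold and 95.5% of 16-fold changes.

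The members and gene lists were chosen with earlier results of these data known. The 16 lists held 215 entries, of which 195 were measured. The rule for named genes took all 9 members, per list and comparison at most the 4 called genes with the smallest p or, with none called, the 2 with the smallest p as values, and the 3 genes most like each member. Promoters covered 8 of 9 members. Alternatives changed the probe set per gene, the unit tested, scaling, filter, pseudocount, arrays in the fit, variance options, weights, covariates, replicate block, adult reference and each array; 1 more, without the array farthest from its group, was chosen after seeing the data.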

Additional observations from a re-analysis of the deposited data

Results flagged for a closer look

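Dusp10 on control replicate 2 of day 21 stood apart from the other 3 control arrays of that day. On the log2 scale it was 9.52, the nearest other array was 6.81 and the lowest 6.34. The gap to the nearest array took 0.851 of the range of the group, above Dixon's 95% limit for 4 arrays. The second Dusp10 probe set was also highest on this array, at 1000.4 intensity units, against 65.6 to 259.5 on the other 3. In all, 35 groups of arrays and probe sets were looked at in this way, and chance alone marks about 1 in 20.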

How the results depend on the processing

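Of 4 members called lower in fetal liver, 2 were called with the 3' to 5' ratio as a covariate, against control day 21 alone and with only the arrays compared, and 2 to 5 over all 16 settings other than leaving out an array. Without 1 array the number ranged from 1 to 6. In the KO comparison of day 21 it ranged from 0 to 1, the 1 being Dusp10 without control replicate 2. In the other comparisons 0 members were called under every setting. In the fetal comparison Dusp5 remained called in 16 of 16 settings and Dusp6 in 15, Dusp4 lost its call in 4 (adjusted p up to 0.112) and Spry2 in 5 (up to 0.168); the causes were not tested. All 9 members kept a negative fetal difference in all settings and without each array.

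Members that were not called changed sign under some settings, and the causes were not tested. With the 3' to 5' ratio as covariate, Dusp10 day 21 against day 7 was 0.15, Dusp2 KO at day 21 0.60, Dusp4 day 21 against day 7 −0.19, Dusp4 KO at day 7 −0.0471 and Spred1 KO at day 21 0.26. With the share at the floor as covariate, Dusp10 day 21 against day 7 was 0.26, Dusp10 KO at day 21 −0.16, Dusp2 KO at day 21 0.29, Dusp4 day 21 against day 7 −0.0964, Spred1 KO at day 21 0.62 and Spred1 KO at day 7 0.49. With array weights, Dusp2 KO at day 21 was 0.11, Dusp4 KO at day 7 −0.26 and Spred1 KO at day 7 0.12. With the mean of all probe sets, Dusp10 day 21 against day 7 was 0.11 and Spred1 KO at day 7 0.046. With arrays centred on their median, Dusp2 day 21 against day 7 was 0.11 and Dusp4 KO at day 7 −0.0621, and under quantile normalization the latter was −0.0370. Leaving out, in each group, the array farthest from its mean (a choice made after seeing the data), Dusp1 KO at day 7 was −0.014, Dusp2 KO at day 21 0.38, Dusp4 KO at day 7 −0.83, Spred1 KO at day 7 0.24, Spry2 day 21 against day 7 0.11 and Spry2 KO at day 21 −0.058.

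Leaving out 1 array gave, for day 21 against day 7, −0.27 to 0.19 for Dusp2, −0.73 to 0.29 for Spred1 and −0.50 to 0.056 for Spry2. For KO at day 7 it gave −0.77 to 0.56 for Dusp4 and −0.52 to 0.51 for Spred1. For KO at day 21 it gave −0.16 to 0.20 for Dusp2, −0.54 to 0.077 for Spred1, −0.68 to 0.18 for Spry1 and −0.0038 to 0.29 for Spry2.

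Over all genes, 613 were called in the fetal comparison, 1228 when all probe sets were tested, 402 against control day 7 alone and 234 with only the arrays compared. Over all settings, KO at day 7 ranged from 0 to 6 around 0, KO at day 21 from 0 to 43 around 3, the mean KO effect from 0 to 44 around 12, and day 21 against day 7 from 1 to 20 around 5, and the difference between KO effects from 0 to 2 around 0. Same-numbered arrays of different groups correlated in their deviations from the group means between −0.0303 and 0.0784. Arrays with different numbers were not compared in this way, so whether replicate numbers pair the arrays is not settled. With a replicate block 4 members were called in the fetal comparison and 0 in the others, and 524 genes of all in the fetal comparison. Precision is limited by 3 or 4 arrays per group, and for Dusp4 and dim Spred1 probe sets by the floor.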
